A study of Danio rerio with 9 samples.

Results

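The messenger RNA of 1-week zebrafish larvae was set against that of 64-cell embryos, gene by gene. A gene entered the comparison when it reached at least 1 RPKM (reads scaled to transcript length and to the mapped reads of the library) in either library, which held for 18805 of the 29291 genes of the deposited table. The difference was taken in log2(RPKM + 1), 1-week minus 64-cell, so a positive value means higher in the larva. Genes at 1 RPKM or more in the 1-week library but not in the 64-cell library are called 1-week only, genes at 1 RPKM or more in both are called shared, and the third class is 64-cell only.

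The series followed zebrafish development over 9 stages with 1 poly(A) RNA-seq library per stage, made from about 2000 pooled individuals and sequenced on the SOLiD platform. The 1-week library came from larvae 1 week after fertilization, and the 64-cell library came from embryos 2 hours after fertilization. Both were of the AB strain, which all 9 stages share, and no treatment or genetic change was applied. Each stage is 1 pool without replicates, so no test between the stages was possible, no replicate error exists, and every difference below is a difference between these 2 libraries.

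An egg is loaded during oogenesis with RNA made from the mother's genome. Cleavage divisions run on this store, with rapid rounds of DNA synthesis and mitosis and almost no transcription by the embryo. The store is then degraded, the embryo's own genome is switched on, and by the larval stage muscle, eye, skin, gut, liver, pancreas and nervous system carry out their differentiated functions. The 64-cell stage precedes the main wave of genome activation, so its RNA is taken to be largely maternal. In whole-animal libraries, fewer cells of a type and less RNA per cell cannot be told apart. In libraries of poly(A) RNA, a difference in RNA level and one in poly(A) tails cannot be told apart either.

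The 1-week library rested on 204464275 mapped reads and the 64-cell library on 123311411, as recovered from the steps in the RPKM values. A gene of median recovered length (2092 bases) at 1 RPKM was counted on 428 reads at 1 week and on 258 at 64-cell, with a lower exact 95% Poisson bound of 0.908 RPKM at 1 week and 0.882 RPKM at 64-cell. These intervals cover counting error only. Abundance was more concentrated at 1 week, where the 100 most abundant genes held 44.7% of summed RPKM, against 18.4% at 64-cell.

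Both libraries held low levels of some transcripts that their neighbours in the series had lost or did not have. For some of the lists, but not all, other libraries held such levels too. At 1 week, the 20 egg coat zona pellucida genes summed to 140.2 RPKM with 14 members at 1 RPKM or more. At 64-cell they summed to 2199.5 RPKM with 20 members at that level. At Protruding-mouth, 72 hours after fertilization, they summed to 4.54 RPKM with 0 members at 1 RPKM. A smaller rise was seen at Long-pec (48 hours), at 23.4 RPKM with 9 members. Prim-25 (36 hours) had 7.36 RPKM and Pec-fin (60 hours) had 1.84 RPKM. Of 254 genes at 10 RPKM or more at 64-cell and under 0.5 RPKM at Protruding-mouth, 121 were at 1 RPKM or more at 1 week. In 236 of the 254 the level was higher at 1 week than at Protruding-mouth. That count is favored by the choice of genes with low values at Protruding-mouth. Over all 254 the median level at 1 week was 2.29% of the 64-cell level. At 1 week the 25 germ plasm and germ cell genes summed to 33.9 RPKM and the 21 meiosis genes to 9.76 RPKM, against 38.0 and 8.85 RPKM at Protruding-mouth.

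In the 64-cell library, the 8 vitellogenins, the yolk precursors made by the adult female liver, summed to 32.6 RPKM with 6 members at 1 RPKM or more. At oblong-sphere they summed to 0.102 RPKM with 0 members at that level. No vitellogenin reached 1 RPKM in any library but 64-cell, and their sum at 1 week was 3.08 RPKM. The 24 exocrine pancreas genes summed to 101.9 RPKM at 64-cell and 13.1 RPKM at oblong-sphere. At 50%-epiboly they summed to 325 RPKM, with 14 members at 1 RPKM or more, against 13 at 64-cell. The 11 granulosa and ovarian follicle cell genes summed to 6.09 RPKM at 64-cell and 0.284 RPKM at oblong-sphere. They summed to more than at 64-cell in later libraries, with 12.2 RPKM at 50%-epiboly, 24.3 RPKM at 15-somite and 22.5 RPKM at 1 week. This list is therefore not particular to 64-cell. The 24 testis and sperm genes summed to 47.7 RPKM at 64-cell and 61.8 RPKM at oblong-sphere. In all, 158 genes at 10 RPKM or more at 1 week and at 1 RPKM or more at 64-cell were at oblong-sphere more than 4-fold below their 64-cell level. The part of these transcripts in the results was not tested. Whether they were made by the animals of these stages or came from material of another stage or adult tissue is not known from these data, so a low value in either library, and a place in the shared class that rests on one, is uncertain. Putting oblong-sphere in place of 64-cell gave 7186 1-week only genes, 10195 shared genes and 1443 genes of the early library only, and putting Protruding-mouth in place of 1-week gave 5410, 10153 and 1548.

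More genes were detected in the larva, and most of them at low levels. At 1 RPKM or more there were 17381 genes at 1 week, against 11701 genes at 64-cell. Of the genes kept, 7104 (37.8%) were 1-week only, 10277 (54.7%) were shared and 1424 (7.57%) were 64-cell only. Among genes at 1 RPKM or more, 74.5% were under 10 RPKM at 1 week, against 46.3% at 64-cell, and the medians were 4.41 RPKM at 1 week and 11.4 RPKM at 64-cell. At the upper end the order was the other way, with 608 genes at 100 RPKM or more at 1 week and 447 at 64-cell. Summed RPKM was 541791 at 1 week and 310665 at 64-cell. RPKM is already scaled to mapped reads, so this sum is not a measure of the amount of RNA. Because the sums differ, a share of summed RPKM can differ in direction from the RPKM itself. Gene differences were not taken on the scale of such shares. Of the 64-cell genes, 87.8% were also at 1 RPKM or more at 1 week.

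**Figure D1:**
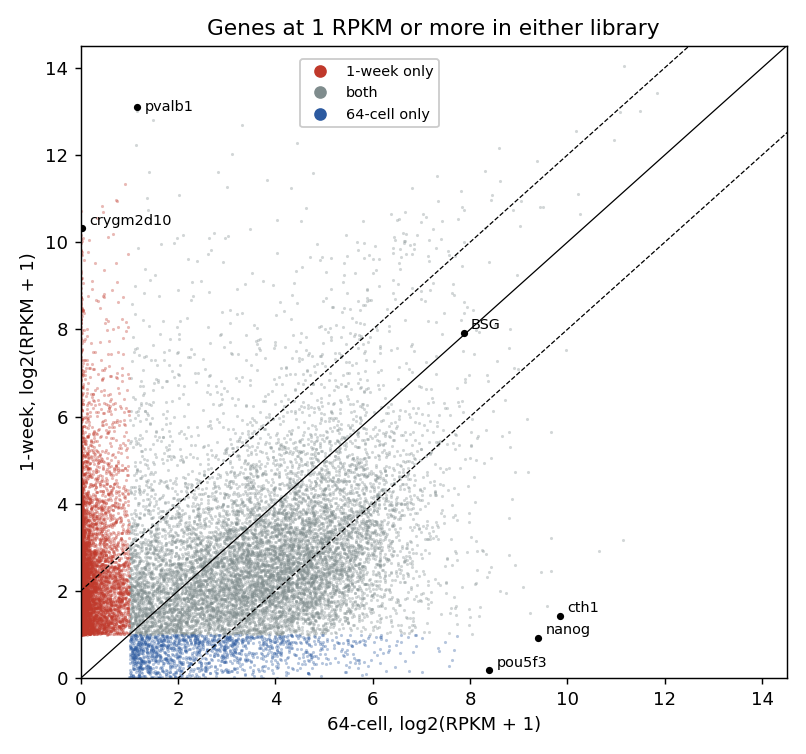
Each point is 1 of the 18805 genes, with log2(RPKM + 1) at 1 week on the vertical axis and at 64-cell on the horizontal axis, colored by class. The solid line marks equal values and the dashed lines a difference of 2 either way, and the shared cloud lies mostly below the line of equality while the 1-week only genes climb along the vertical axis.

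By a difference of at least 2, which is 4-fold on the log2(RPKM + 1) scale, 4074 genes (21.7%) were higher and 3262 genes (17.3%) were lower at 1 week. By a difference of at least 1, 7925 genes (42.1%) were higher and 5936 genes (31.6%) were lower, and the median over all genes kept was 0.40. Counts of higher and lower list members below are at this 2-fold level, and these 2 shares belong beside each of them. The counts of 4-fold higher and lower genes were 3568 and 3988 under median-of-ratios scaling, which moved all differences by a median of -0.34, so which direction held more genes depended on the scaling. Levels in the 2 libraries were weakly related across genes, with a Spearman rho of 0.22 over the genes kept, given as a description of genes that share both libraries.

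Just inside 1 RPKM at 1 week were oip5 at 1.00 RPKM and six5 at 1.00 RPKM, and just outside was bean1 at 0.9998 RPKM. Just inside 1 RPKM at 64-cell was plcxd1 at 1.00 RPKM, and just outside was tenm1 at 0.998 RPKM. Genes this near the threshold could fall in either class by counting error alone.

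Single genes with the largest excess at 64-cell included factors of genome activation, RNA regulators and cyclins. Nanog, a homeodomain factor required for zebrafish genome activation, had 0.895 RPKM at 1 week and 674 RPKM at 64-cell, a difference of -8.48. Its Poisson interval at 1 week ran from 0.803 to 0.996 RPKM. Pou5f3, its POU-domain partner in genome activation, had 0.134 RPKM at 1 week and 335 RPKM at 64-cell, a difference of -8.21. The SoxB1 factor sox19b had 6.73 and 302 RPKM (-5.29). All 3 were far higher at 64-cell. The genome activation list as a whole was split, with 7 of 14 kept members higher and 7 lower by at least 2-fold, and it also holds factors of later tissues. SOX2, a SoxB1 factor of neural progenitors, had 18.1 RPKM at 1 week and 0.00779 RPKM at 64-cell.

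RNA regulators of the egg were also lower at 1 week. Cth1, a zinc finger protein of the family that binds AU-rich elements, had 1.70 RPKM at 1 week and 916 RPKM at 64-cell (-8.41). BTG4, an adaptor that brings the deadenylase to maternal RNA in mouse, had 1.31 and 252 RPKM (-6.77), and LSM14B, a repressor of stored oocyte RNA in mouse, had 0.767 and 179 RPKM. Both cth1 and BTG4 were lower still at Protruding-mouth, at 0.0220 and 0.0276 RPKM, and the part of the low 1-week level noted above was not tested. Of 45 kept genes of the RNA translation and decay list, 36 were at least 2-fold lower at 1 week and 2 higher (median -2.53). Over all genes kept 31.6% were lower and 42.1% higher. YBX1, a cold-shock protein that binds messenger RNA, was one of those higher, at 457 RPKM at 1 week and 196 RPKM at 64-cell.

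Oocyte regulators showed the lowest median of the 59 lists, at -4.95, with 24 of 28 kept members lower and 1 higher by at least 2-fold. WEE2, the oocyte form of the kinase that restrains CDK1, had 0.568 RPKM at 1 week and 204 RPKM at 64-cell. The importin alpha kpna7 had 2.02 RPKM at 1 week and 251 RPKM at 64-cell. Of 25 kept germ plasm and germ cell genes 24 were lower at 1 week, with a median of -3.66. Of the 25, 18 were 64-cell only, against 7.57% of all genes kept. DAZL, a germ cell RNA-binding protein, had 0.306 and 101 RPKM, and DDX4, the Vasa helicase of germ cells, had 0.855 and 70.8 RPKM. 

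Egg coat genes had a median of -4.26, with 16 of 20 lower and 1 higher, against 31.6% and 42.1% of all genes kept. Zp3e, a zona pellucida protein, had 16.3 RPKM at 1 week and 463 RPKM at 64-cell, and zp3c had 1.35 and 95.4 RPKM. A small cluster did not follow. Chosen after its values were seen, zp2.5 had 18.2 RPKM at 1 week and 22.5 RPKM at 64-cell, with 0.0531 RPKM at Protruding-mouth, and zp2.1 had 17.3 RPKM at 1 week and 15.4 RPKM at 64-cell. Near-identical copies of these genes can share reads.

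Cell cycle genes were lower at 1 week almost throughout. Of 66 kept mitosis genes 65 were at least 2-fold lower at 1 week and 0 higher (median -3.95), against 31.6% and 42.1% of all genes kept. Their share of summed RPKM was 0.0271% at 1 week and 2.09% at 64-cell. Cyclins led the list. CCNA1, a cyclin A of egg and germ line in mouse, had 2.18 RPKM at 1 week and 769 RPKM at 64-cell (-7.92), CCNB1 had 4.54 and 808 RPKM (-7.19), and CCNB2 had 1.84 and 597 RPKM (-7.72). The B cyclins activate CDK1 at entry to mitosis. At Protruding-mouth CCNA1 had 0.189 RPKM, CCNB2 had 2.71 RPKM and CCNB1 had 26.9 RPKM. The 67 mitosis genes of the list summed to 595 RPKM there, between 6486 RPKM at 64-cell and 147 RPKM at 1 week.

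DNA replication genes were lower at 1 week in 46 of 51 kept members, against 31.6% of all genes kept, with a median of -2.89. CDT1, which loads the replicative helicase, had 0.948 RPKM at 1 week and 212 RPKM at 64-cell, and GMNN, the geminin that inhibits it, had 5.01 and 483 RPKM. PCNA, the sliding clamp of DNA polymerase, kept a higher level, at 49.0 RPKM at 1 week and 258 RPKM at 64-cell. DNA repair genes were lower in 50 of 64 kept members (median -2.09). Of the 64, 23 were 64-cell only, against 7.57% of all genes kept. Chromatin modifiers were lower in 35 of 49 (median -1.89), among them DNMT1, the maintenance DNA methyltransferase, at 3.54 and 278 RPKM.

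Claudins, the sealing proteins of tight junctions, differed in direction between members. Cldnd had 6.60 RPKM at 1 week and 1605 RPKM at 64-cell, and cldng had 3.26 and 542 RPKM. In the other direction, cldni had 117 RPKM at 1 week and 0.380 RPKM at 64-cell, and cldnb had 92.4 and 0.728 RPKM. Of the 21 kept claudins, 15 were higher and 5 lower at 1 week by at least 2-fold. Over all genes kept the shares were 42.1% higher and 31.6% lower, so lower members were not more frequent than among all genes.

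**Figure D2:**
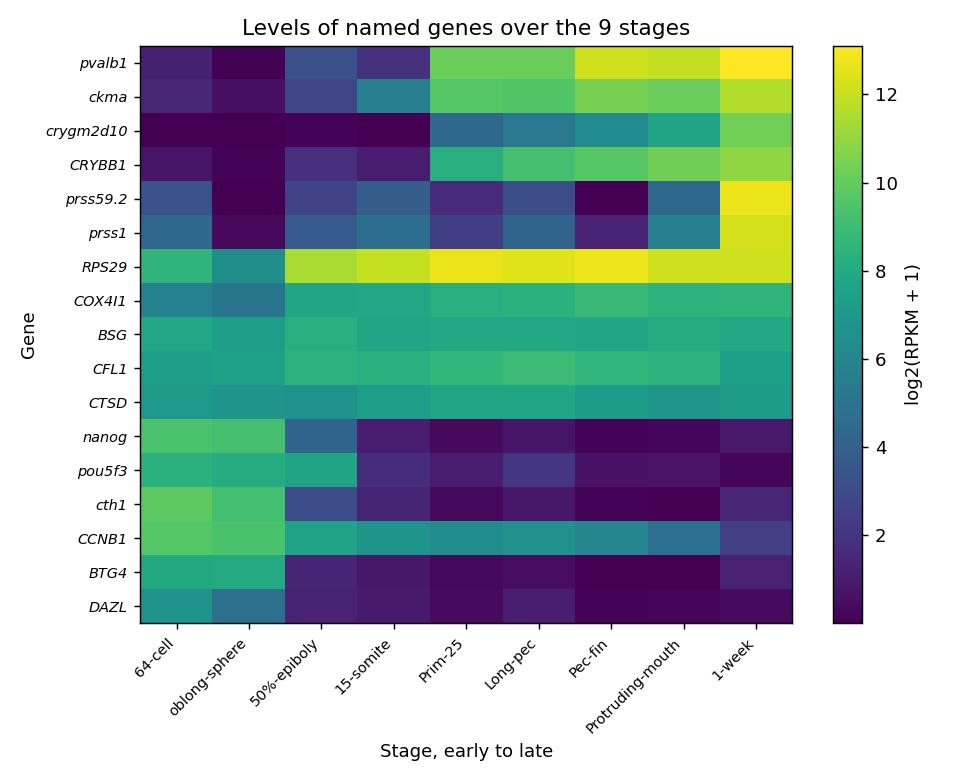
Levels of genes named in the text over the 9 stages, early to late from left to right, as log2(RPKM + 1). The muscle, lens and digestive genes at the top are high at 1 week, while nanog, pou5f3, cth1, CCNB1, BTG4 and DAZL at the bottom are high at 64-cell and oblong-sphere.

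Genes of differentiated tissues had the largest excess at 1 week. By list median, lens crystallins (8.45) and exocrine pancreas genes (7.82) were highest. Globins (5.51), epidermis and keratin genes (5.22) and skeletal muscle genes (4.84) came next. The largest single difference was that of a muscle gene. Pvalb1, a parvalbumin that takes up calcium in fast muscle, had 8772 RPKM at 1 week and 1.24 RPKM at 64-cell, a difference of 11.94 and the largest of any gene with a symbol of its own. Its level at oblong-sphere was 0.0631 RPKM. The paralog pvalb2 had 7154 RPKM at 1 week and 1.79 RPKM at 64-cell. The creatine kinase ckma, which buffers ATP in muscle, had 3136 and 1.65 RPKM. By a difference of at least 1, 54 of 56 kept skeletal muscle genes were higher and 0 lower, against 42.1% and 31.6% of all genes kept. Of the 56, 49 were 1-week only, against 37.8% of all genes kept, which set their direction. Their median was 4.84, and their summed RPKM was 5.89% of the total at 1 week and 0.0591% at 64-cell. TNNC2, the calcium sensor of fast muscle, had 1508 and 0.260 RPKM.

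Of the lens crystallins, the structural proteins that give the lens its transparency, 40 of 42 kept members were higher and 0 lower. Over all genes kept 42.1% were higher and 31.6% lower. CRYBB1 had 1961 RPKM at 1 week and 0.669 RPKM at 64-cell, and crygm2d10 had 1279 RPKM at 1 week and 0.0164 RPKM, which is 2 reads, at 64-cell. The crygm2d genes are near-identical copies that can share reads, so values of single copies are uncertain. Of 41 kept photoreceptor genes 35 were 1-week only, 4 were shared and 2 were 64-cell only. Over all genes kept these shares were 37.8%, 54.7% and 7.57%. The cone opsin opn1sw2 had 250 RPKM at 1 week and 0.918 RPKM at 64-cell. That is near the threshold of 1 RPKM, so its place in the 1-week only class is uncertain. The cone opsin opn1lw2 had 156 RPKM at 1 week and 0.0628 RPKM at 64-cell.

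Pancreatic digestive enzymes were high at 1 week. Trypsin genes prss59.2 and prss1, proteases secreted into the gut, had 6610.25 and 4939 RPKM at 1 week, against 8.95 and 20.9 RPKM at 64-cell. At Protruding-mouth they stood at 20.0 and 48.1 RPKM. The chymotrypsinogen ctrb.2 had 773 RPKM at 1 week and 0.0513 RPKM at 64-cell. Of 23 kept members of the list 22 were higher and 1 lower, against 42.1% and 31.6% of all genes kept. At 1 RPKM or more in both libraries were 13 of the 23, a share near the 54.7% over all genes kept. At oblong-sphere prss59.2 had 0.00632 RPKM and prss1 had 0.273 RPKM, so these transcripts were lower there than at 64-cell.

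Liver, intestine and skin genes were also mostly higher at 1 week, against 42.1% of all genes kept. Of 62 kept liver and plasma protein genes 59 were higher (median 4.07), of 35 intestine genes 30 were higher (median 3.91), and of 31 epidermis and keratin genes 28 were higher (median 5.22). Apoa2, a lipoprotein of liver, had 1438 RPKM at 1 week and 22.0 RPKM at 64-cell, but 0.217 RPKM at oblong-sphere. The intestinal fatty acid-binding protein FABP2 had 225 RPKM at 1 week and 1.11 RPKM at 64-cell, and the keratin krt4 had 2050.45 and 1.56 RPKM.

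Nervous system genes were lower in level but mostly 1-week only. Of 43 kept synaptic genes 39 were 1-week only, against 37.8% of all genes kept, so the filter set the direction of most. By at least 2-fold 37 were higher (median 2.69), against 42.1% of all genes kept. Over all 48 in the table the median was 4.83 RPKM at 1 week and 0.0511 RPKM at 64-cell. SNCG, a synuclein, had 77.8 RPKM at 1 week and 0.00388 RPKM at 64-cell, and GFAP, an intermediate filament of glia, had 77.2 and 0.0367 RPKM. Of 32 kept hox genes 30 were higher and 29 were 1-week only, against 42.1% and 37.8% of all genes kept. Hormones included the growth hormone gene gh1, at 48.9 RPKM at 1 week and 0.210 RPKM at 64-cell. The embryonic globin gene hbae3 had 729 RPKM at 1 week, below its 5359 RPKM at Protruding-mouth, and 0.647 RPKM at 64-cell.

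**Figure D3:**
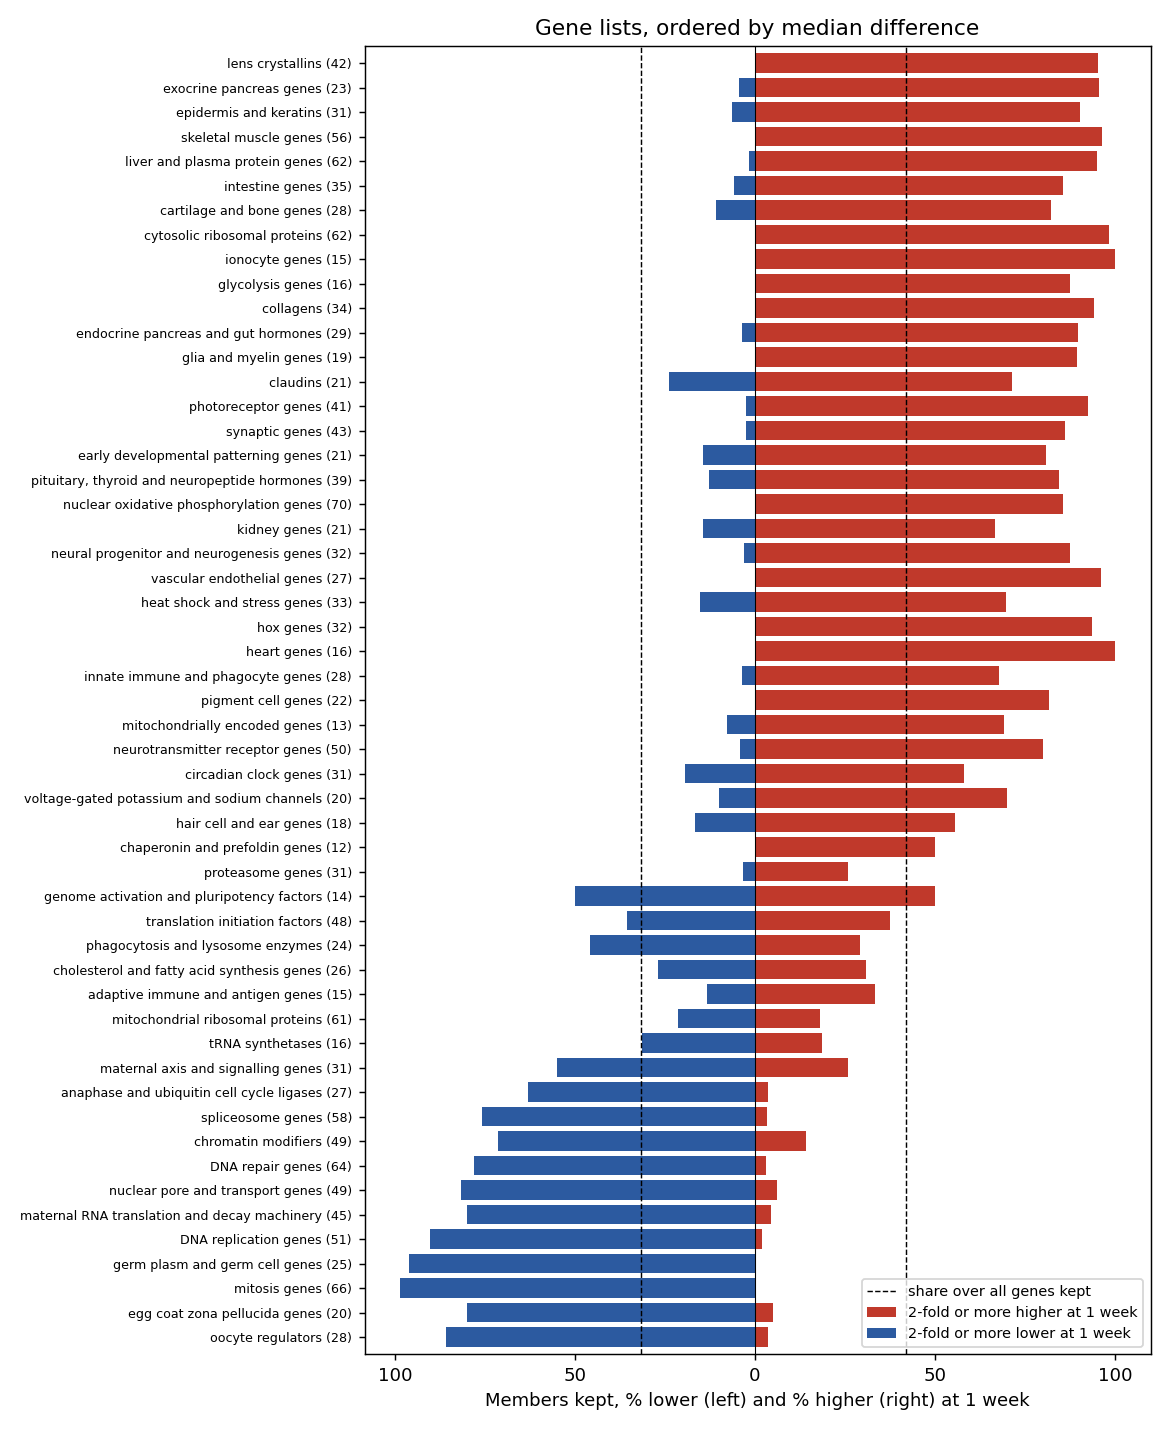
Share of kept members of each gene list with 10 or more kept members that were at least 2-fold higher (right, red) or lower (left, blue) at 1 week than at 64-cell, ordered by the list's median difference. Dashed lines mark the shares over all 18805 genes, 42.1% higher and 31.6% lower, and the number in brackets is the kept members.

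The shared class held the machinery that every cell uses, but in unequal amounts. All 62 cytosolic ribosomal proteins, all 58 spliceosome genes, all 13 mitochondrially encoded genes, all 12 chaperonin and prefoldin genes, all 16 tRNA synthetases, 48 of 49 nuclear pore and transport genes and 30 of 31 kept proteasome genes were at 1 RPKM or more in both libraries, against 54.7% of all genes kept. Within the shared class 4864 genes (47.3%) were at least 2-fold lower at 1 week, 1528 (14.9%) were at least 2-fold higher and 3885 (37.8%) lay within 2-fold.

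Ribosomal proteins differed in the opposite direction from splicing and nuclear pore genes. By a difference of at least 1, 61 of 62 ribosomal protein genes were higher at 1 week and 0 were lower, with a median of 3.33. They held 11.4% of summed RPKM at 1 week and 2.06% at 64-cell. The list summed to 6387 RPKM at 64-cell, 4645 RPKM at oblong-sphere and 27082 RPKM at 50%-epiboly. The part of poly(A) tails in this was not tested. RPS29 had 4587 RPKM at 1 week and 387 RPKM at 64-cell, and RPL38 had 859 and 15.4 RPKM. Spliceosome genes were lower in 44 of 58 and higher in 2, with a median of -1.84. Over all genes kept 31.6% were lower and 42.1% higher. SNRPB, a core protein of the small nuclear ribonucleoproteins, had 82.6 RPKM at 1 week and 417 RPKM at 64-cell, and SNRPC of the U1 particle had 8.30 and 149 RPKM. Nuclear pore and transport genes were lower in 40 of 49 and higher in 3, with a median of -2.31. RAN, the GTPase that drives nuclear transport, had 298 RPKM at 1 week and 224 RPKM at 64-cell. Its difference of 0.41 was within 2-fold.

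Most genes of oxidative phosphorylation had higher RPKM at 1 week. Of 70 kept nuclear oxidative phosphorylation genes 60 were higher and 0 lower (median 2.19). Of the 13 genes of the mitochondrial genome 9 were higher and 1 lower (median 1.39). Over all genes kept 42.1% were higher and 31.6% lower. MT-CO2, a subunit of cytochrome oxidase, had 16959 RPKM at 1 week and 2286 RPKM at 64-cell. MT-ND6 was the member lower at 1 week, at 10.7 and 53.4 RPKM. It lies on the other strand of the mitochondrial genome, and strand use in counting is not given in the sources used here. Of 16 kept glycolysis genes, a separate list, 14 were higher and 0 lower (median 2.98). GAPDH, an enzyme of glycolysis, had 1786 RPKM at 1 week and 228 RPKM at 64-cell. Genes for mitochondrial ribosomal proteins differed by 2-fold less often than all genes kept (42.1% higher, 31.6% lower). Of 61 such genes, 11 were higher and 13 lower, with a median of -0.62. That balance depended on the setting, with 5 higher and 26 lower under median-of-ratios scaling, 6 and 21 when scaled without the 100 most abundant genes, and 13 and 3 with Protruding-mouth in place of 1-week.

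Some genes held nearly the same level at both ends. Among genes at 100 RPKM or more in both, the smallest differences in the values as deposited were those of BSG, a membrane glycoprotein, at 242 RPKM at 1 week and 233 RPKM at 64-cell (0.06), and CFL1, the actin-severing cofilin, at 167 and 157 RPKM (0.09). Their Poisson intervals, 241 to 244 RPKM and 231 to 234 RPKM for BSG, do not overlap, but these cover counting error alone. The lysosomal protease CTSD had 151 and 136 RPKM. This order depended on the scaling, since median-of-ratios scaling gave BSG -0.28 and mcl1a, an inhibitor of cell death at 129 RPKM at 1 week and 111 RPKM at 64-cell, -0.12. Of the shared genes, 7706 were at 1 RPKM or more in all 9 libraries, and 65 were under it in all 7 libraries between.

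In most pairs of 2 chosen forms, the form listed as that of the egg or germ line made up less at 1 week. By a difference of any size, the form listed as body-wide was itself lower at 1 week in 13 of 16 pairs and higher in 3. Among these forms, pabpc1a (0.39), PABPN1 (-0.17), BCL2L1 (-0.57) and CTNNB1 (-0.91) were within 2-fold, so their direction is uncertain. The median difference over all genes kept was 0.40. In 16 pairs listed as an egg or germ line form and a body-wide form, the egg form made up more than 50% of the RPKM of both in 2 pairs at 1 week and in 11 pairs at 64-cell, and its share was lower at 1 week in 15 of 16. The median share was 16.2% at 1 week and 67.2% at 64-cell. Each share is of the 2 chosen forms, and other members of a family were not counted. The egg label is uncertain for ctnnb2, with 49.8 RPKM at Protruding-mouth, and for sox19b, with 73.1 RPKM at 15-somite. In the nuclear poly(A)-binding proteins, pabpn1l had 0.936 RPKM at 1 week and 70.4 RPKM at 64-cell, while PABPN1 had 25.5 and 28.8 RPKM. In importin alpha, KPNA2 was lower too, at 6.43 RPKM at 1 week and 106.9 RPKM at 64-cell, beside kpna7 as given above. The forms listed as body-wide that were higher at 1 week were pabpc1a, cldnb and sox19a. Of these, cldnb (0.728 RPKM) and sox19a were under 1 RPKM at 64-cell. Whether they are found body-wide in the larva was not tested, so that label is uncertain for them. Sox19a had 11.3 RPKM at 1 week and 0.127 RPKM at 64-cell, while sox19b was lower at 1 week as given above. ZAR1L and ZAR1, with a ZAR1L share of 63.3% at 1 week and 62.7% at 64-cell, are both oocyte genes and do not make such a pair. ZAR1 itself had 2.21 RPKM at 1 week and 91.5 RPKM at 64-cell. CCNA2, kept as a body-wide form, was also far lower at 1 week, at 4.39 and 704 RPKM. Without ZAR1L and ZAR1 the median share was 9.44% at 1 week and 70.17% at 64-cell. The egg form then held over 50% in 1 pair at 1 week and in 10 at 64-cell. The body-wide form was then lower at 1 week in 12 of 15 pairs and higher in 3. The share of ZAR1L was the only one of the 16 not lower at 1 week. Leaving this pair out therefore fixes the count at 15 of 15. Another 7 pairs were listed as a body-wide form and a muscle form. The body-wide form held over 50% in 2 pairs at 1 week and in 5 pairs at 64-cell. These counts are uncertain. GAPDH was listed as a muscle form but had 228 RPKM at 64-cell, against 3.83 RPKM for GAPDHS. At 64-cell both ACTN1 and actn3b were under 1 RPKM, and eef1a2 was under it in both libraries. The calcium pump atp2a2a had 11.1 RPKM at 1 week and 54.4 RPKM at 64-cell, and atp2a1, the form of fast muscle, had 869 RPKM at 1 week and 0.109 RPKM at 64-cell.

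**Figure D4:**
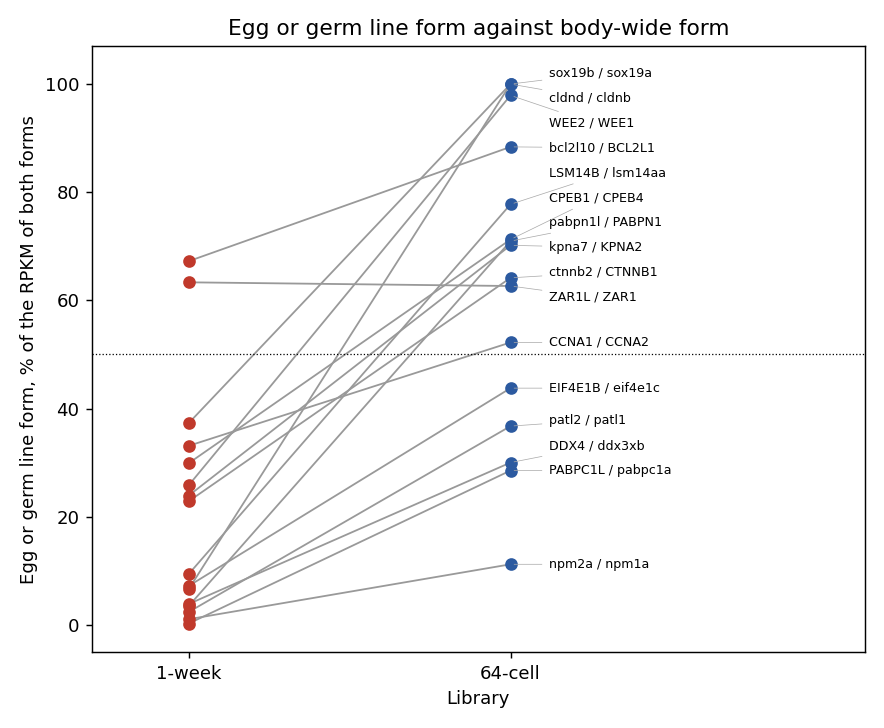
Share of the egg or germ line form in the RPKM of both forms, in percent, for 16 pairs, at 1 week on the left and 64-cell on the right, joined by a line per pair. The egg form's share is lower at 1 week in 15 pairs and its median is 16.2% at 1 week and 67.2% at 64-cell; the pair ZAR1L and ZAR1 holds 2 oocyte genes.

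The classes ran a different course through the 7 libraries between. Of the 1424 genes that were 64-cell only, 86.2% were still at 1 RPKM or more at oblong-sphere, 34.8% at 50%-epiboly and 30.3% at Protruding-mouth. For 529 of them (37.1%) the last library at 1 RPKM or more was oblong-sphere, and for 432 (30.3%) it was Protruding-mouth. Of the class, 219 genes (15.4%) were at 1 RPKM or more in all 8 libraries before 1 week. The rest of the 432 had been under 1 RPKM in at least 1 library between. Of the 7104 genes that were 1-week only, 5.70% were at 1 RPKM or more at oblong-sphere, 20.7% at 50%-epiboly, 38.8% at 15-somite and 70.0% at Protruding-mouth. For 1788 (25.2%) the 1-week library was the first and only one at 1 RPKM or more.

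**Figure D5:**
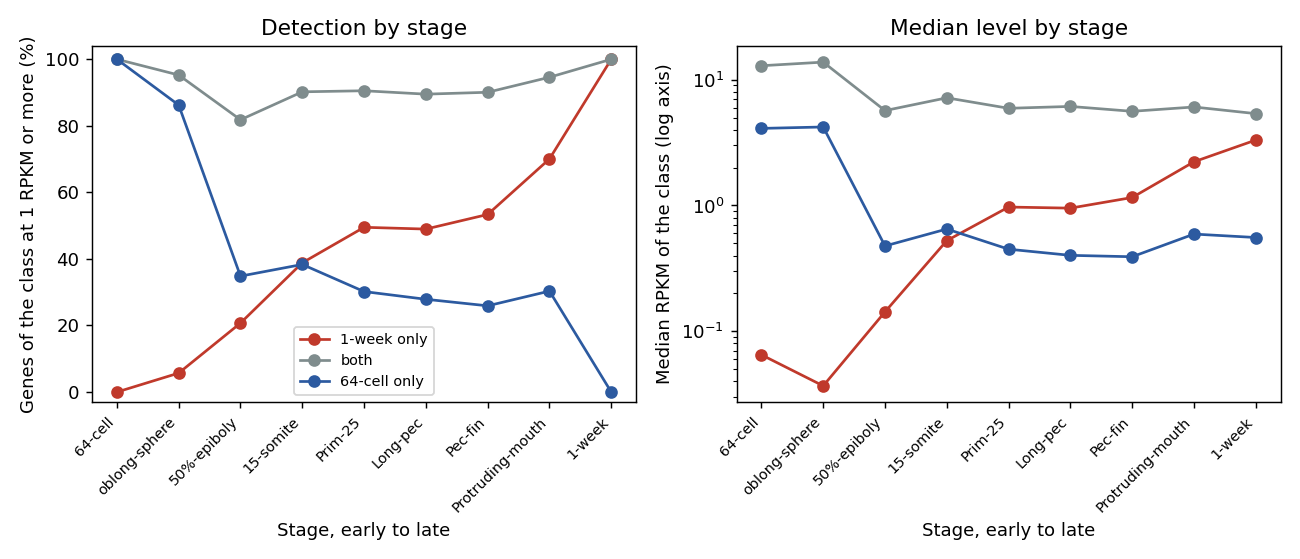
Percent of each class at 1 RPKM or more (left) and its median RPKM on a log axis (right) over the 9 stages. The endpoints at 64-cell and 1 week are set by the definition of the classes, and between oblong-sphere and 50%-epiboly 86.2% and then 34.8% of the 64-cell only class were at 1 RPKM or more.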

How the data were processed

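The deposited table held RPKM values made by the authors from SOLiD reads of poly(A) RNA, per the labels, on build Zv9, per the submitters' processing notes. The aligner, annotation and counting program are not stated by the sources at hand. Values were used as deposited. Differences used a pseudocount of 1 and genes at 1 RPKM or more in either library. Mapped reads and gene lengths were recovered from the RPKM steps, with 1 length for 14685 genes (78.1%, tolerance 1e-09), and gave the Poisson intervals. The code was tested on simulated data. With 1 library per stage no test was run.

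Symbols came from a table that matched 19580 of 29291 gene IDs, and its upper-case symbols were kept. Symbols carried by more than 1 ID were left out. The members and the 59 gene lists were chosen with earlier results of these data known. List names were matched to symbols, 117 of them through RefSeq synonyms (GRCz12tu). After the values were seen, some members matched by pattern or synonym were found not to belong to their list. The lists were kept as first written for all counts, and a trimmed version with current symbols only was added as an alternative. Named genes were the 15 largest differences each way at 10 RPKM or more, the 5 highest per class, the 5 highest and steadiest shared genes, 4 largest and 2 highest per list, and all pairs. Alternatives were a pseudocount of 0.1, no filter, 2 other scalings, leaving out mitochondrial genes, thresholds of 0.5 and 2 RPKM, and a neighbouring stage also at threshold. Replacing either library by its neighbour was added after seeing the data. Python 3.11.15, pandas 2.3.3 and scipy 1.17.1 were used.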

Additional observations from a re-analysis of the deposited data

How the results depend on the processing

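With a pseudocount of 0.1, 7396 genes were at least 4-fold higher at 1 week, against 4074 as reported. The 64-cell only class held 867 genes at a threshold of 0.5 RPKM and 2354 at 2 RPKM, against 1424. The other alternatives kept the 5 counts within 1.5 times. With a pseudocount of 0.1, 37 of 59 list medians and 163 of 282 named-gene differences moved by over 1.5 times and 0 turned round, and with Protruding-mouth in place of 1-week 29 of 59 medians moved. The 2 other scalings moved none by that much. With oblong-sphere in place of 64-cell, 5 medians changed sign: genome activation to -3.07, against 0.15; vitellogenins to 0.43, against -1.59; hatching gland genes to -0.18, against 1.96; testis and sperm genes to 0.78, against -0.09; and adaptive immune genes to 0.96, against -0.44. With Protruding-mouth, tRNA synthetases had 0.03, against -0.63, and translation initiation factors to 0.28, against -0.01. The genome activation median was -0.07 under median-of-ratios scaling. The cause was not tested. Trimming the lists after their values were seen moved 5 of 59 list medians by over 1.5 times. Medians near 0 changed sign for phagocytosis and lysosome enzymes (-0.21 as first written, 0.15 trimmed) and translation initiation factors (-0.01 and 0.39). The most affected was the genome activation list, whose median was 0.15 as first written and 1.46 trimmed by 1 member, with 7 higher in both versions and 7 or 6 lower. Its median lies between 2 separate groups of genes and no direction is read from it. No paired analysis was possible because each stage has 1 library. Without replicates, depth limits only counting error, and biological spread is unknown.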
